A study of Mus musculus with 50 samples.

Results

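The 10 genes described here are transcripts that renal tubule cells raise or re-express after damage: Havcr1, Lcn2, Slpi, Vcam1, Krt7, Krt8, Krt18, Krt19, Sox9 and Cd24a. They were chosen by name, as the rows of the count files that carry these symbols, and all 10 were found among 24984 genes. Gene expression was measured by RNA-seq in 38 libraries of 10 groups and open chromatin by ATAC-seq in 12 libraries of 4 groups, all from C57BL/6 mice. Untreated kidney and liver were taken at 2.5 months (young) and at 23 to 25 months (old), and each tissue and age had 4 RNA-seq and 3 ATAC-seq libraries. Kidney and liver were also taken from mice of 20 to 21 months that had received DMSO, the solvent, or 3C, with 4 RNA-seq libraries in each group. Skin fibroblasts labelled P9, given DMSO or 3C, made up the remaining groups, with 3 libraries each. The labels do not say what 3C or P9 stands for, or how 3C was given. The young and old tissue donors were female according to the study's methods.

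An injured proximal tubule cell loses its transport proteins, flattens and either regains its brush border or stays in a dedifferentiated state. Havcr1 encodes KIM-1, a receptor for dying cells that is hardly made by the healthy tubule, and Lcn2 encodes NGAL, a siderophore-binding protein that is also a neutrophil granule and liver acute phase product. Slpi encodes a secreted inhibitor of neutrophil elastase. Vcam1 encodes an adhesion molecule for leukocytes that endothelium and stroma carry as well, and in the tubule it marks cells whose repair has stalled. Keratins 8 and 18 pair into the filaments of simple epithelia, keratins 7 and 19 belong to ducts and urothelium, Sox9 is a transcription factor of tubule regeneration, and Cd24a encodes a surface sialoglycoprotein of epithelial and immune precursors.

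By GENCODE vM21 on GRCm38, the build of the files, 3 of the keratins lie near each other: Krt7 (chr15:101411043-101430313, plus strand), Krt8 (chr15:101996698-102004482, minus strand) and Krt18 (chr15:102028180-102032027, plus strand). Chromosome 11 holds Havcr1 (chr11:46735080-46779578, plus strand), Krt19 (chr11:100140810-100148665, minus strand) and Sox9 (chr11:112782224-112787760, plus strand). Chromosome 2 holds Lcn2 (chr2:32384633-32388252, minus strand) and Slpi (chr2:164354070-164389095, minus strand). The remaining genes are Vcam1 (chr3:116109949-116129688, minus strand) and Cd24a (chr10:43578284-43584265, plus strand).

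Reads assigned to genes numbered 14.2 to 43.7 M (M, 1e6 counts) per RNA-seq library, with 14.2 to 21.9 M in young and 20.3 to 43.7 M in old kidney. The 54 pairs of replicates all differed by more than sampling noise, with a smallest chi-square per degree of freedom of 7.78, so every library was counted once. Levels are given as CPM, counts per 1e6 counts of the library, scaled within each comparison, so a level in 1 comparison and a level in another are scaled separately. A gene was called when edgeR's quasi-likelihood test gave a Benjamini-Hochberg adjusted p below 0.05 over all genes tested and the fold change was above 2 or below 0.5. The untreated libraries and the DMSO and 3C libraries differ in how unmapped and multiply mapped reads were tallied, and they were not tested against each other. Nothing in the labels says that libraries of a group came from separate animals, so the p values measure the spread between libraries. The tissue labels were borne out by defining markers: Umod, of the thick ascending limb, had 6219 to 7144 CPM in young kidney and 0 counts in the young and old livers. In the DMSO and 3C livers Umod was at 0 to 0.456 CPM, except 3C liver replicate 4, which had 4.02 CPM of Umod and 3.42 CPM of the proximal tubule phosphate transporter Slc34a1.

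Old kidney carried more of these transcripts than young kidney. Of the 10 genes, 5 were called higher and none was called lower, where 5.68% of the 14495 genes tested were called higher and 0.407% lower. The genes called were Slpi, Lcn2, Havcr1, Vcam1 and Krt18. Krt8 and Cd24a passed the adjusted p but not the fold, so 7 of 10 passed on p alone, where 8.15% of all genes did so in the higher direction. Krt8 missed the adjusted p in 6 of 8 fits that left out a single library (0.0678 to 0.0987), and Cd24a in 5 of 8 (0.0554 to 0.115) and with the replicate block (0.0959). The fitted log2 fold change was above 0 for all 10, with a median of 1.17, where the median of all genes tested was 0.021, and all 10 had an unadjusted p below 0.05, as 30.1% of all genes did. Old and young libraries did not overlap, with old higher, for 7 of 10 genes, and for 10.9% of all genes. In bulk tissue, fewer cells of a type and less RNA per cell cannot be told apart, and the same holds for more cells and more RNA.

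**Figure D1:**
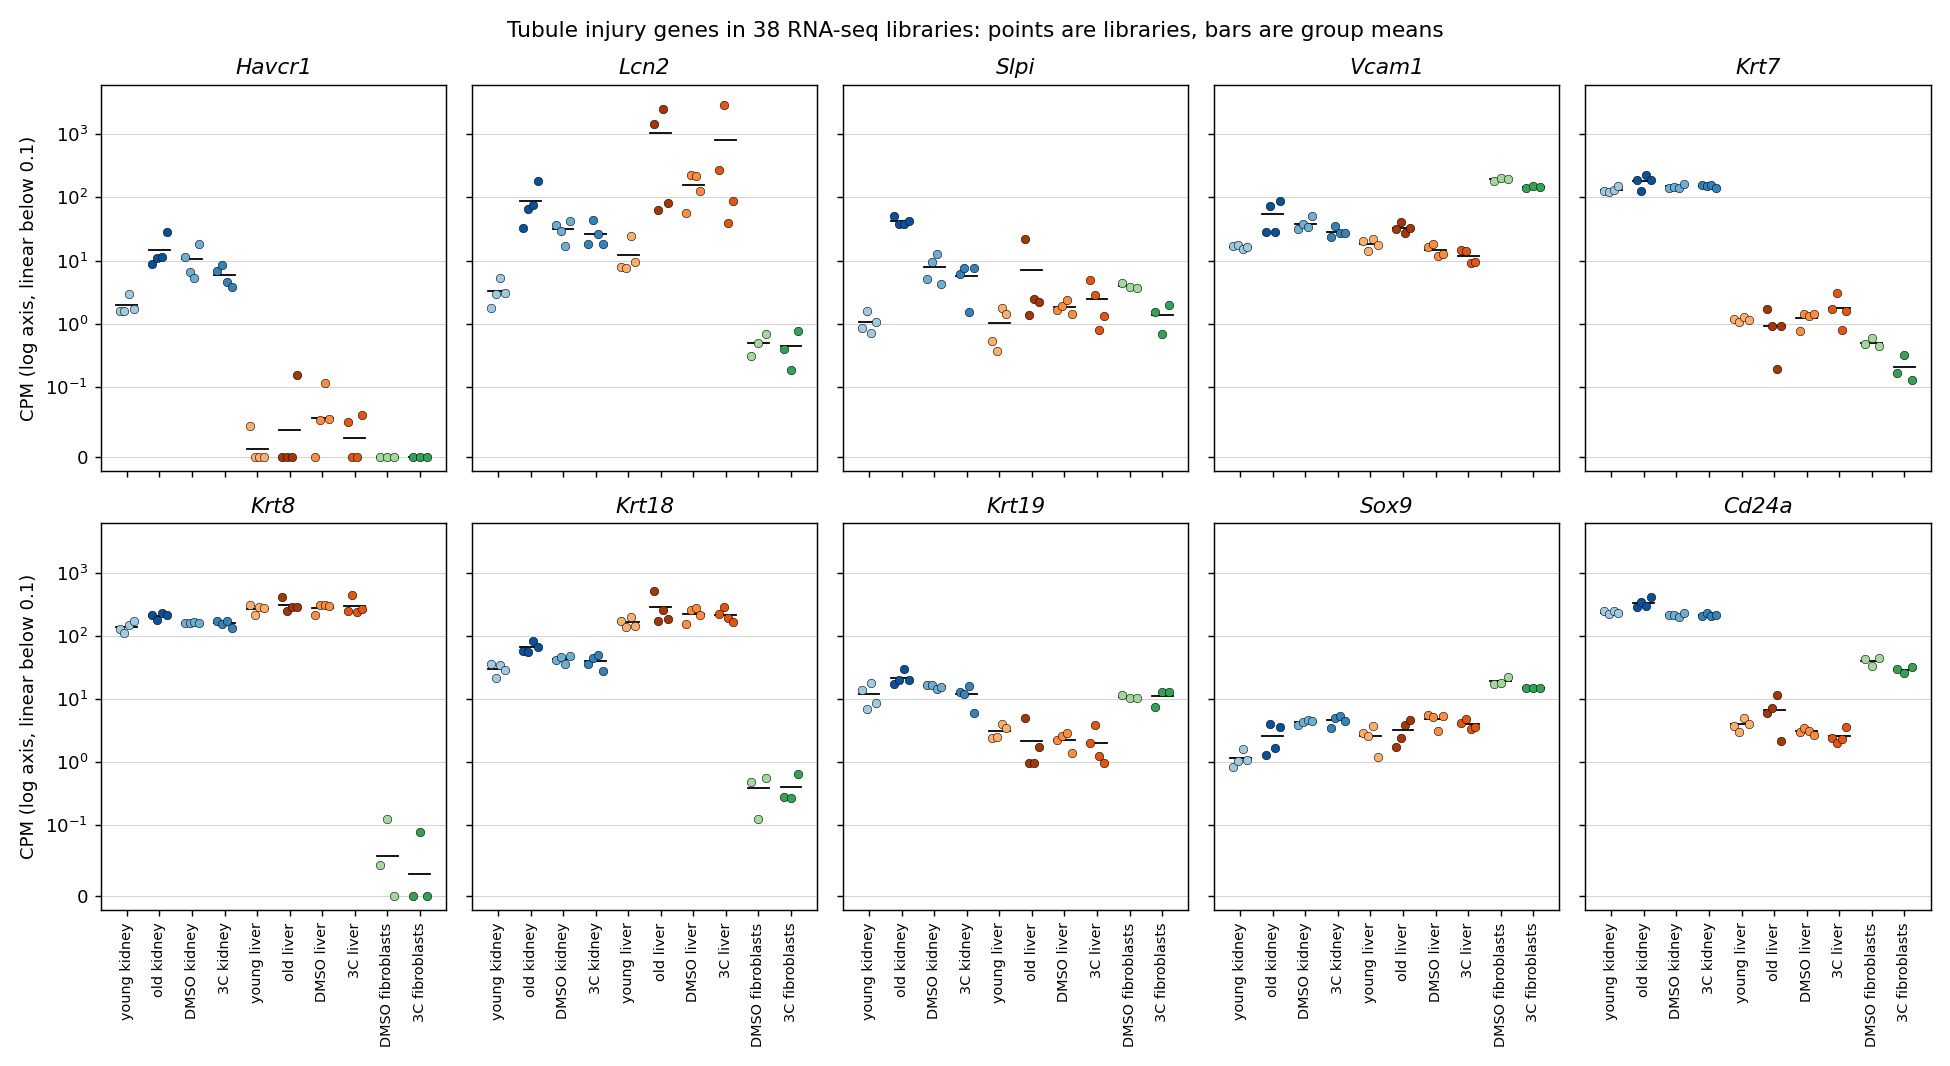
CPM (log axis, linear below 0.1) of the 10 genes in all 38 RNA-seq libraries, with 1 panel per gene, points for libraries and bars for group means. Old kidney lies above young kidney without overlap for 7 genes, Lcn2 reaches 1463 CPM or more in 2 old livers and 1 3C liver, and Vcam1 and Sox9 are highest in fibroblasts.

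Slpi, the elastase inhibitor, showed the largest fold change of the 10 genes. Its level was 0.852, 1.62, 0.716 and 1.08 CPM in the 4 young kidneys and 50.4, 38.4, 38.1 and 42.0 CPM in the 4 old kidneys. The groups lay far apart, and the old libraries lay close to each other. This was a log2 fold change of 5.27 ± 0.24 (SE, n = 4 and 4), a 38.5-fold difference with an adjusted p of 6.33e-06 in edgeR. By p, Slpi ranked 2 among all 14495 genes tested. The gene with the smallest p was Jchain, the joining chain of plasma cell antibodies.

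Lcn2 was next in size. Young kidneys held 1.76, 2.97, 5.23 and 3.05 CPM and old kidneys 32.4, 66.1, 75.8 and 180 CPM. The groups did not overlap, but the old libraries spread over a wider range than those of Slpi, with replicate 4 highest and replicate 1 lowest. On the log2 scale the difference was 4.795 ± 0.55 (SE), which is 27.8-fold, with an adjusted p of 0.00112 in edgeR. Without old replicate 4 it was 4.18, and without old replicates 2 and 4 together 4.08.

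Havcr1, the KIM-1 gene, was near the lower end of detection in young kidney, at 1.60, 1.57, 2.94 and 1.74 CPM. Old kidneys held 8.78, 10.99, 11.2 and 28.5 CPM. The lowest old library was above the highest young one, and old replicate 4 stood well above the other 3. The log2 fold change of 2.94 ± 0.41 (SE) was 7.7-fold, with an adjusted p of 0.00229 in edgeR. Leaving out any library kept the calls of Slpi, Lcn2 and Havcr1.

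Vcam1 divided the old kidneys. Young kidneys lay close together at 16.9, 17.5, 15.4 and 16.5 CPM, and old kidneys held 28.4, 72.8, 28.8 and 88.0 CPM. All old libraries were above all young ones, with replicates 2 and 4 far above replicates 1 and 3. The fitted log2 fold change was 1.72 ± 0.36 (SE), with an adjusted p of 0.0134 in edgeR. Without old replicates 2 and 4 it was 0.79, below the fold required, with an adjusted p of 0.00676. Leaving out young replicate 3 gave an adjusted p of 0.0533. Markers of stroma and macrophages were also highest in old replicates 2 and 4: fibroblast markers summed to 365, 696, 446 and 825 CPM in old replicates 1 to 4 (388 to 452 CPM in young kidney), and macrophage markers to 736, 912, 740 and 1530 CPM (150 to 189 CPM in young). Their part in the level of Vcam1 was not tested.

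Sox9 was far lower, with 0.852, 1.03, 1.65 and 1.08 CPM in young and 1.32, 3.97, 1.66 and 3.57 CPM in old kidney. Old replicates 2 and 4 again held the higher values, while replicate 1 lay inside the young range and replicate 3 just above it. The log2 fold change of 1.21 ± 0.42 (SE) had an adjusted p of 0.0909 in edgeR and was not called, and in DESeq2 the adjusted p was 0.0421 and the gene was called. Without old replicates 2 and 4 the log2 fold change was 0.382 in edgeR (adjusted p = 0.545). Cd24a, already abundant in young kidney at 220 to 246 CPM, was at 286, 338, 297 and 416 CPM in old kidney. Its log2 fold change of 0.52 ± 0.13 (SE) had an adjusted p of 0.034, at a fold of 1.43. Here too replicates 2 and 4 had the higher values, and without them the log2 fold change of Cd24a was 0.319 (adjusted p = 0.076 in edgeR). Ceruloplasmin (Cp) and complement C3, genes of the wider injury list that are also made by the liver, had their highest old kidney values in the same libraries: Cp was at 194, 348, 207 and 344 CPM in replicates 1 to 4, and C3 at 182, 683, 188 and 433 CPM. Replicate 2 also held hepatocyte transcripts, with albumin (Alb) at 2761 CPM against 14.8 to 47.6 CPM in the other old kidneys, and the part of these in its Cp and C3 values was not tested. These 2 genes were picked after their values were seen, and other genes took other orders. Cdkn1a, of the same injury list, was at 40.7, 42.5, 48.6 and 54.7 CPM in old replicates 1 to 4. Spp1 was at 2876, 2744, 2802 and 4230 CPM, with replicate 2 the lowest.

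**Figure D2:**
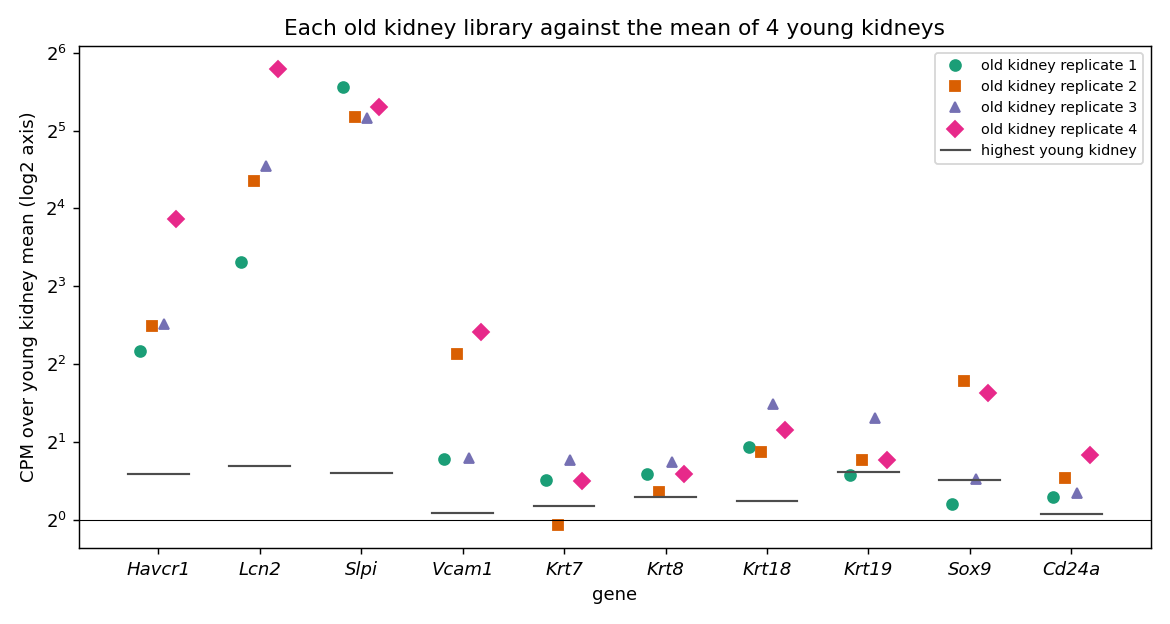
CPM of each old kidney library divided by the mean of the 4 young kidneys (log2 axis), by gene, with 1 symbol per old library and a grey bar at the highest young kidney. Slpi is raised evenly, Lcn2 and Havcr1 are highest in replicate 4, and Vcam1, Sox9 and Cd24a are highest in replicates 2 and 4.

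Among the keratins only Krt18 was called in old kidney under the main settings. It was at 35.5, 21.8, 34.5 and 28.6 CPM in young and 57.4, 55.2, 84.2 and 66.8 CPM in old kidney, with no overlap. It differed by 1.13 ± 0.19 on the log2 scale (SE), a fold of 2.19 with an adjusted p of 0.00465 in edgeR. This fold lies near the limit of 2, and without young replicate 2 or old replicate 3 the log2 fold change was 0.999 or 0.99 and the call was lost on the fold. Krt8, its filament partner, was at 128, 112, 148 and 172 CPM in young and 211, 179, 233 and 210 CPM in old kidney. These groups did not overlap either, but the log2 fold change was 0.57 ± 0.15 (SE, adjusted p = 0.0316 in edgeR), a fold of 1.49.

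Krt7, the keratin of collecting duct and urothelium, was at 123 to 148 CPM in young kidney and at 188, 125, 224 and 185 CPM in old kidney. Old replicate 2 lay inside the young range, and the log2 fold change of 0.46 ± 0.17 (SE) had an adjusted p of 0.101. Krt19 was at 13.7, 6.83, 18.04 and 8.80 CPM in young and 17.6, 20.2, 29.4 and 20.1 CPM in old libraries. Old replicate 1 lay inside the young range, and the difference of 0.89 ± 0.29 (log2, SE) had an adjusted p of 0.0788 in edgeR. Without young replicate 3 it was 1.14 with an adjusted p of 0.0463, and the gene was called. The summed level of 8 urothelial markers was 89.4, 33.7, 92.2 and 39.9 CPM in young kidney replicates 1 to 4 and 92.7, 88.9, 126 and 74.6 CPM in old kidney, which is the order of Krt19 in young but not in old kidney. The part of urothelium in the keratin values was not tested.

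Per kilobase of RefSeq exon, the most abundant of the 10 genes in young kidney were Cd24a (129 ± 7.16 CPM per kb), Krt7 (82.9 ± 7.31) and Krt8 (77.6 ± 14.2) (SD, n = 4). Krt18 followed at 21.5 ± 4.5 CPM per kb, Krt19 at 8.35 ± 3.54 and Vcam1 at 4.88 ± 0.264. The genes with the largest fold changes were among the lowest in young kidney: Lcn2 had 3.81 ± 1.69, Slpi 1.22 ± 0.455 and Havcr1 0.935 ± 0.312 CPM per kb, above only Sox9 at 0.278 ± 0.0827. In old kidney Lcn2 had 104 ± 74.7 CPM per kb beside 114 ± 25.8 for Krt7 and 116 ± 12.2 for Krt8, differences smaller than the spread of Lcn2. Slpi had 48.2 ± 6.51 CPM per kb there and Krt18 47.0 ± 9.41.

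The keratin 8 to keratin 18 ratio, per kilobase, was 3.69 ± 0.81 in young kidney and 2.49 ± 0.287 in old kidney (SD, n = 4), with ranges of 2.79 to 4.66 and 2.15 to 2.85. The values are given as a description. In liver, where hepatocytes make these keratins alone among the 4 described here, the ratio lay nearer 1, at 1.3 ± 0.176 in young and 0.946 ± 0.265 in old. DMSO and 3C kidneys had 2.95 ± 0.463 and 3.17 ± 0.605, and DMSO and 3C livers 0.987 ± 0.11 and 1.07 ± 0.171.

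**Figure D3:**
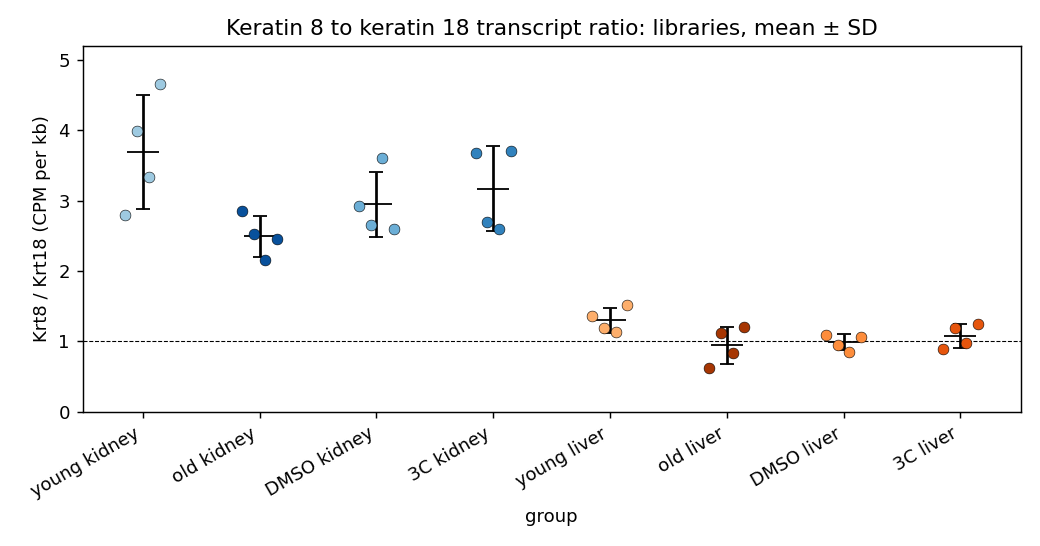
Ratio of Krt8 to Krt18 transcript level (CPM per kb of exon) in the kidney and liver groups, with points for libraries and black bars for the mean ± SD (n = 4). Kidney groups have means of 2.49 to 3.69 and liver groups means of 0.946 to 1.3.

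In the wider set of 40 injury and failed repair genes, 19 of the 38 tested were called higher and none lower, beside 5.68% and 0.407% of all genes. The log2 fold change was above 0 for 37, with a median of 1.10, beside 0.021 over all genes. Serpina10, a protease inhibitor of the clotting system, rose 7.2-fold, from 2.77 ± 0.976 to 19.7 ± 4.24 CPM (SD, n = 4, adjusted p = 0.000594 in edgeR). Vim, the mesenchymal filament vimentin, rose 2.57-fold from 58.0 ± 4.33 to 149 ± 29.9 CPM (adjusted p = 0.000938). Cdkn1a, which encodes the cell cycle inhibitor p21 and stands both here and on the list of SOX9 partners and targets, rose 2.17-fold to 46.6 ± 6.36 CPM (adjusted p = 0.00126). Gdf15, a stress cytokine, rose 2.68-fold to 15.4 ± 2.87 CPM (adjusted p = 0.00136).

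Proximal tubule genes went the other way in size, with 2 of 20 log2 fold changes above 0 and a median of -0.48. Of these, 1 was called lower, beside 0.407% of all genes, the lactate transporter Slc5a12, which fell from 589 ± 80.9 to 286 ± 27.1 CPM (SD, n = 4, adjusted p = 0.00144 in edgeR). On the adjusted p alone 8 of the 20 were lower, beside 3.36% of all genes, and none was higher. The summed level of the list was 37100 to 46800 CPM in young and 25100 to 39300 CPM in old kidney.

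Relatives and partners of the 10 genes and markers of other cell types were counted in the same way, and their counts stand beside shares over all genes of 5.68% called higher, 30.1% at an unadjusted p below 0.05, and 8.15% higher and 3.36% lower on the adjusted p alone. None of 8 other keratins tested was called in edgeR (2 at an unadjusted p below 0.05), and none of 14 junction and keratin partner genes was (5 unadjusted). Of 5 genes tested that share the four-disulfide core of Slpi, 1 was called, Wfdc17, a macrophage product, which rose 11.9-fold to 14.8 ± 5.79 CPM (SD, n = 4, adjusted p = 0.000446). Of 5 cytokines tested that can induce injury genes, 3 were called higher: Tgfb1 by 2.0-fold (adjusted p = 0.00729), Il1b by 4.08-fold (adjusted p = 0.011) and Lif by 5.53-fold (adjusted p = 0.028). Of 12 SOX9 partners and targets, Cdkn1a and Wnt4 were called higher, Wnt4 by 4.07-fold (adjusted p = 0.0341). Markers of the principal cell (8 tested), the intercalated cell (9), the thick ascending limb (6), the bile duct cell (9) and endothelium (9) held no called gene in edgeR, with 6, 7, 2, 4 and 3 at an unadjusted p below 0.05. All 9 intercalated cell markers had log2 fold changes below 0 and 4 were lower on the adjusted p alone, with a summed level of 582 to 672 CPM in young and 445 to 526 CPM in old kidney. On the same criterion 3 bile duct cell markers, 1 thick ascending limb marker and 1 endothelial marker were higher, and 1 principal cell marker was lower. So were 3 of the 14 junction and keratin partner genes and 5 of the 5 cytokines, all of them higher.

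Markers of blood-derived cells differed between the same libraries, with the counts below set against 5.68% of all genes called higher. All 9 macrophage markers were called higher in old kidney. B and plasma cell markers were called in 8 of 9 cases, with sums of 7.73 to 12.6 and 374 to 547 CPM, and T cell markers in 6 of 7 tested, with sums of 5.8 to 7.78 and 23.6 to 36.8 CPM. Of 10 neutrophil markers 3 were tested and 2 called, S100a8 and S100a9, with list sums of 0.266 to 3.08 in young and 14.2, 5.86, 5.92 and 24.2 CPM in old replicates 1 to 4. Ly6g, the defining neutrophil marker, stayed at 0 to 0.203 CPM in old kidney. Of 8 urothelial markers 1 was called, Psca, at 2.47-fold (adjusted p = 0.0349), and of 8 fibroblast markers Thy1 and Lum were called, at 3.8-fold and 2.97-fold. Of 7 hepatocyte markers tested, F2 and Serpina1b were called. The summed hepatocyte markers reached 3970 CPM in old kidney replicate 2, the library with high albumin, and lay between 107 and 164 CPM in the other old kidneys. Leaving out that library kept all 5 calls. The part of the immune, urothelial and stromal markers in the levels of Slpi, Lcn2 and Vcam1 was not tested.

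In liver, age was tied to fewer calls among these genes. Of the 9 genes tested only Lcn2 was called higher under the main settings, none was called lower, where 1.69% of 12537 genes tested were called higher and 0.439% lower. At an unadjusted p below 0.05 there were 4 of 9, beside 14.7% of all genes. Havcr1 was too low to be tested, with 1 count in all young livers together and 4 in all old livers. Lcn2 was at 8.04, 7.67, 24.2 and 9.42 CPM in young and 1463, 63.7, 2483 and 81.5 CPM in old liver. Old replicates 1 and 3 lay far above replicates 2 and 4, and replicates 2 and 4 were still above every young library. It differed by 6.37 ± 1.19 on the log2 scale (SE, n = 4 and 4), with an adjusted p of 0.0222 in edgeR.

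The liver call of Lcn2 depended on single libraries. It was lost when any 1 of the 4 young livers or old replicate 3 was left out, with adjusted p between 0.0524 and 0.081 and log2 fold changes of 5.44 to 6.93. Without old replicates 1 and 3 together, the log2 fold change was 2.56 and the gene was called. Neutrophil markers moved with these values: their sum was 99.5, 16.2, 158 and 11.1 CPM in old liver replicates 1 to 4 and 1.03 to 4.74 CPM in young liver, and 5 of 5 tested were called higher. Other immune markers were also highest in old replicates 1 and 3. B and plasma cell markers summed to 74.1, 39.1, 87.3 and 17.5 CPM in old replicates 1 to 4, with 4 of 6 tested called higher. Macrophage markers summed to 1350, 1270, 1560 and 791 CPM. Ceruloplasmin, which hepatocytes release in the acute phase, was at 3745, 1619, 4366 and 1412 CPM in the same old livers. Complement C3, the other acute phase gene shown for kidney, was at 11110, 11650, 23030 and 11430 CPM there, with replicate 1 the lowest, and both genes were picked after their values were seen. Their part in the level of Lcn2 was not tested.

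Vcam1 passed the adjusted p but not the fold in old liver, so that 2 of 9 passed on p alone in the higher direction, beside 1.91% of all genes. It was at 20.4, 14.1, 21.8 and 17.4 CPM in young and 31.3, 41.2, 27.3 and 32.8 CPM in old (log2 fold change 0.85 ± 0.19 SE, adjusted p = 0.0474 in edgeR). Its groups did not overlap, as was also true of Lcn2 and of 6.05% of all genes with old higher. The adjusted p was 0.0506 with RLE factors, 0.156 with the replicate block and 0.0728 to 0.141 in 7 of 8 fits without a single library, so the count on p alone was 0 to 2 over those 8 fits. Without old replicates 1 and 3 its log2 fold change was 1.001 and it was called. Macrophage markers summed to 518 to 774 CPM in young and 791 to 1560 CPM in old liver, with 3 of 9 called higher, and their part was not tested. Slpi was at 0.371 to 1.76 CPM in young liver and 22.1, 1.35, 2.45 and 2.198 CPM in old liver. Replicate 1 alone stood out, and the log2 fold change of 2.79 ± 0.90 (SE) had an adjusted p of 0.15. Without that library the log2 fold change was 0.981. Krt18 was at 139 to 197 CPM in young and 505, 173, 260 and 187 CPM in old liver (log2 fold change 0.785, adjusted p = 0.279, and 0.342 without old replicate 1), and Krt8 differed by 0.18 ± 0.21 (log2, SE, adjusted p = 0.817). Krt7, Krt19, Sox9 and Cd24a had log2 fold changes of -0.33, -0.54, 0.29 and 0.77, with adjusted p of 0.446 to 0.888. Single libraries moved these values: without 1 library at a time Krt19 ran from -1.32 (old replicate 1 left out) to -0.298 (old replicate 2 or 3), Sox9 from 0.053 (old replicate 4) to 0.5 (young replicate 3) and Cd24a from 0.367 (old replicate 3) to 1.06 (old replicate 4).

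The age effects of the 2 tissues were compared as an interaction in a joint fit. None of the 10 genes differed at an adjusted p below 0.05 in edgeR, 2 did at an unadjusted p below 0.05, and of 15036 genes tested 1.72% passed the adjusted and 14% the unadjusted p. The 2 genes were Slpi, with an age effect larger in kidney by 2.44 ± 1.06 (log2, SE, adjusted p = 0.307), and Krt19, by 1.39 ± 0.62 (adjusted p = 0.323). Without old liver replicate 1 both differed, Slpi by 4.23 (adjusted p = 0.00126) and Krt19 by 2.17 (adjusted p = 0.0239). With kidney and liver of the same number paired within each age, again none of the 10 genes differed in edgeR (Slpi by 3.27, adjusted p = 0.133, and Krt19 by 1.69, adjusted p = 0.234). The age effect of Lcn2 was smaller in kidney by 1.63 ± 1.24 on the log2 scale, with an adjusted p of 0.601, and by 0.557 ± 1.565 (adjusted p = 0.917) in the paired fit.

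**Figure D4:**
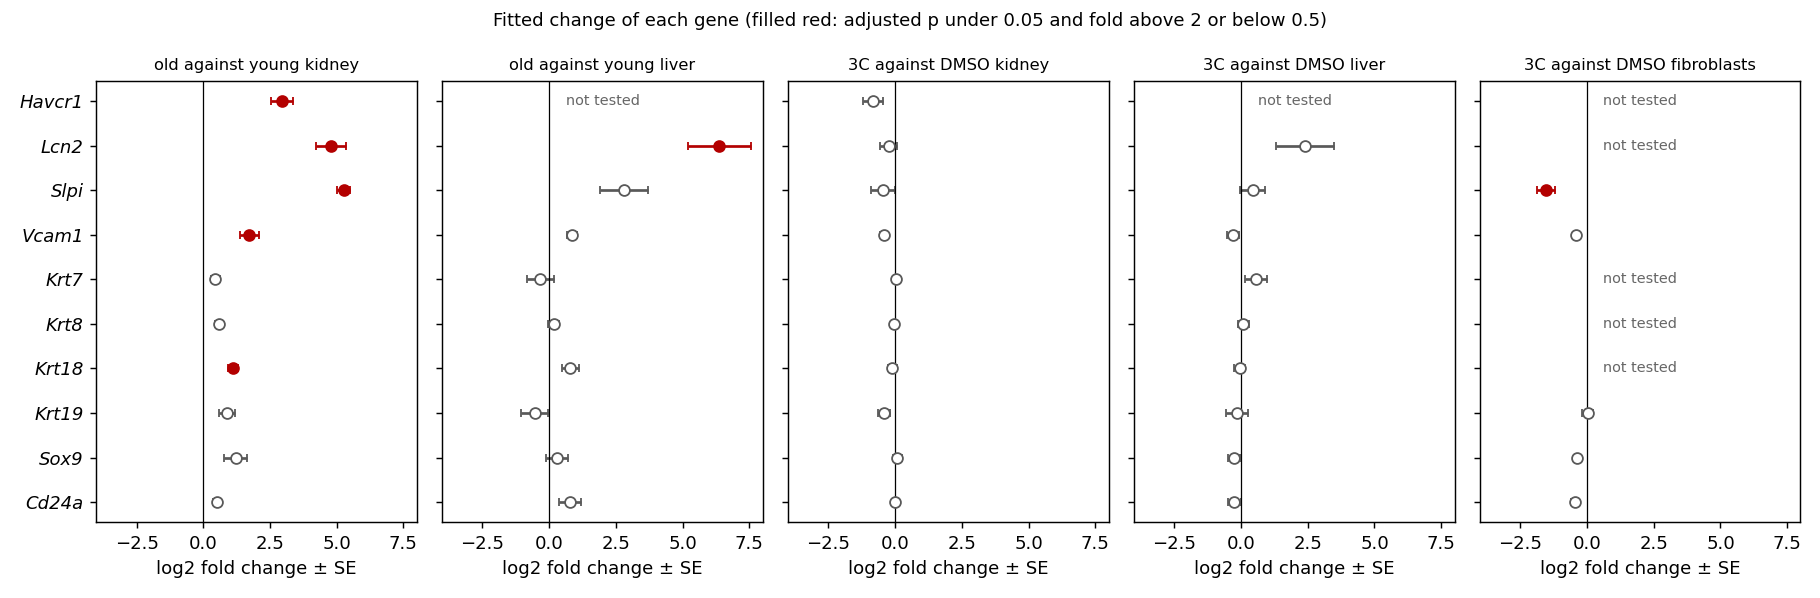
Fitted log2 fold change ± SE of the 10 genes in the age and 3C comparisons, with filled red points for called genes and open grey points for the rest. Kidney with age has 5 called genes, liver with age has Lcn2 only, the 3C kidney and liver panels have none, and fibroblasts with 3C have Slpi, which is lower.

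The young tissues themselves differed in nearly all of these genes. Between young kidney and young liver 3 were called higher in kidney, where 25.7% of 14057 genes tested were, and 5 were called lower, where 16.9% were. Havcr1 was 58.9-fold higher in kidney by the scaled edgeR fit, with 135 counts in 4 young kidneys against 1 in 4 young livers. Per unscaled library total that is a ratio of 164, with an exact 95% interval of 28.9 to 6520 that covers counting error only. The interval belongs to this ratio and not to the edgeR fold. Krt7 was 53.7-fold higher in kidney (log2 5.75 ± 0.15 SE, adjusted p = 4.6e-11 in edgeR) and Cd24a 28.2-fold (4.82 ± 0.17, adjusted p = 3.14e-10). Higher in liver were Krt18 by 11.4-fold, Lcn2 by 8.04-fold, Sox9 by 4.77-fold, Krt8 by 4.06-fold and Vcam1 by 2.33-fold, with adjusted p from 1.34e-08 to 0.000237. Krt19 was 1.82-fold higher in kidney (adjusted p = 0.0304), and Slpi, at a log2 fold change of -0.96, did not pass (adjusted p = 0.122). Krt19 was called without young kidney replicate 2 (1.06, adjusted p = 0.0103) or young liver replicate 3 (1.01, adjusted p = 0.0262), and Slpi without young liver replicate 2 (-1.25, adjusted p = 0.0405). The folds between tissues depend on the scaling. Here Vcam1 had means of 11.3 CPM in young kidney and 26.3 CPM in young liver. Scaled as in the age comparisons, it had 15.4 to 17.5 and 14.1 to 21.8 CPM, which overlap. So scaled, the means of Krt8 were 140 and 270 CPM, less than 2-fold apart. Those of Krt19 were 11.8 and 3.1 CPM, more than 2-fold apart. The calls of Vcam1 and Krt8 held in all 14 other settings of this comparison, which scale both tissues together.

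Across all 10 groups the genes fell into different orders. Havcr1 was highest in the kidney groups, from 14.9 ± 9.16 CPM in old to 1.96 ± 0.653 in young (SD, n = 4), did not exceed 0.154 CPM in any liver and had 0 counts in all 6 fibroblast libraries. Krt7 and Cd24a also had all 4 kidney groups at the top, at 131 to 180 and 212 to 335 CPM. Lcn2, Krt8 and Krt18 had their highest means in old liver, which overlapped the next group for each: 1020 ± 1170 and 821 ± 1380 CPM in old and 3C liver for Lcn2, 306 ± 69 and 297 ± 93.5 for Krt8, and 281 ± 154 and 224 ± 55 CPM in old and DMSO liver for Krt18. Vcam1 was highest in fibroblasts, at 193 ± 10.6 CPM with DMSO and 146 ± 5.6 with 3C (SD, n = 3), and so was Sox9, at 19.2 ± 2.65 and 14.9 ± 0.186 CPM. Krt8 had at most 0.126 CPM in fibroblasts and Krt18 at most 0.648.

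For the DMSO kidneys of 20 to 21 months, levels are set beside those of the untreated series without a test. The series were scaled separately, so the order of near values depends on the scaling. DMSO kidneys had 7.92 ± 4.03 CPM of Slpi (SD, n = 4), below every old kidney and above every young one. The marker sums of other tubule cells differed between the series at either age: thick ascending limb markers summed to 5030 to 6290 CPM in DMSO kidney and 8550 to 9840 CPM in young and old kidney, and principal cell markers to 1360 to 1560 and 747 to 1110 CPM. Their part in the levels that follow was not tested. Havcr1 was at 5.22 to 18.3 CPM and Lcn2 at 17.1 to 42.3 CPM, both above the young range and overlapping the old range. Vcam1, at 31.3 to 50.6 CPM, lay above the young range and within the old range. Krt18, at 35.9 to 47.1 CPM, lay below every old kidney. Its lowest value was so near the highest young one, 35.5 CPM, that separate scaling could change their order. Among the genes not called in old kidney, Sox9 and Cd24a lay outside the span of the young and old means. Sox9 was at 4.36 ± 0.36 CPM, beside 2.63 ± 1.33 in old and 1.15 ± 0.343 in young kidney, and Cd24a at 212 ± 11.6 CPM, beside 335 ± 59 in old and 234 ± 13 in young. Krt19 was at 15.9 ± 1.08, Krt7 at 148 ± 10.2 and Krt8 at 160 ± 4.9 CPM, each with a mean between those of young and old kidney.

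3C was compared with DMSO in the kidney, in the liver and in skin fibroblasts. In kidney none of the 10 genes was called in edgeR or in DESeq2, 2 had an unadjusted p below 0.05, as 11.9% of all genes did, and 0% of 14974 genes tested were called in edgeR (5 genes in DESeq2). Those 2 were Havcr1, at 11.4, 6.63, 5.22 and 18.3 CPM with DMSO and 6.71, 8.42, 4.58 and 3.86 CPM with 3C (log2 fold change -0.82 ± 0.37 SE, adjusted p = 0.418), and Vcam1, at 31.3 to 50.6 and 23.8 to 35.8 CPM (-0.42 ± 0.16, adjusted p = 0.333). The groups overlapped for all 10 genes, and 6.94% of all genes had groups that did not. Macrophage markers summed to 619 to 699 CPM with DMSO and 386 to 599 CPM with 3C, none of 9 called in edgeR and 7 at an unadjusted p below 0.05, and 7 of 8 fibroblast markers had such a p, all 8 with log2 fold changes below 0. Their part in the values of Havcr1 and Vcam1 was not tested. Lcn2, Slpi and Krt19 had log2 fold changes of -0.25, -0.46 and -0.43. Krt7, Krt8, Krt18, Sox9 and Cd24a lay between -0.10 and 0.08, with SEs of 0.058 to 0.17.

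In liver none of the 9 genes tested was called with 3C in edgeR or in DESeq2, 1 had an unadjusted p below 0.05, as 3.34% of all genes did, and 0% of 13042 genes tested were called in edgeR (3 genes in DESeq2). That gene was Lcn2, at 55.7, 222, 221 and 127 CPM with DMSO and 269, 2888, 39.6 and 86.1 CPM with 3C. A single 3C library, replicate 2, carried the difference in means: the log2 fold change of 2.39 ± 1.08 (SE, adjusted p = 1 in edgeR) became -0.25 without it. The neutrophil markers summed to 34 CPM in that library and 5.01 to 18.1 CPM in the other 3C livers, and to 6.79 to 37.3 CPM with DMSO. The 3C effects of kidney and liver did not differ at an adjusted p below 0.05 for any of the 10 genes in edgeR, nor for any of 15526 genes tested (0%). At an unadjusted p below 0.05 there were 0 of 10, beside 3.57% of all genes. With kidney and liver of the same number paired within each treatment the adjusted p was 1 for all 10 genes.

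In fibroblasts 5 of the 10 genes were tested, since Havcr1, Lcn2, Krt7, Krt8 and Krt18 had too few counts. Slpi was called lower, where 0.632% of 13449 genes tested were, at 4.37, 3.81 and 3.66 CPM with DMSO and 1.52, 0.683 and 1.94 CPM with 3C. The groups did not overlap, and the log2 fold change was -1.55 ± 0.35 (SE, n = 3 and 3, adjusted p = 0.0346 in edgeR), a 2.92-fold lower level. The call rested on few libraries and was lost when any 1 library other than 3C replicate 3 was left out, with adjusted p of 0.0604 to 0.111. Vcam1, Sox9 and Cd24a lay lower in all 3C libraries than in all DMSO libraries, as did 12.5% of all genes, with log2 fold changes of -0.41, -0.36 and -0.46 and adjusted p of 0.066, 0.184 and 0.0978. Of the 5 genes, 4 had an unadjusted p below 0.05, beside 20.2% of all genes. Macrophage markers summed to 295 to 388 CPM with DMSO and 114 to 185 CPM with 3C, with 1 of 9 called lower, 7 at an unadjusted p below 0.05 and 6 not overlapping, and their part in these values was not tested. Krt19 was at 10.5 to 11.8 CPM with DMSO and 7.58 to 12.8 CPM with 3C.

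Chromatin at the start sites was read from the ATAC-seq peaks, which mark DNA open to the Tn5 transposase. A gene was scored by the highest fold enrichment over local background of any peak within 1 kb of a GENCODE start site, and 0 where there was none. Every old kidney library had fewer peaks in all (93072 to 108970) than every young one (115836 to 128395). Krt7, Krt8 and Cd24a had a peak in all 6 kidney libraries, as 58.2% of 24534 genes did. Lcn2, Slpi, Vcam1 and Krt8 had one in all 6 liver libraries, as 52.5% of genes did, but none of these 4 held at a -log10 q of at least 5 and 2 held within 250 bp. For Slpi this pooled distant start sites, and no single start had a peak in every liver. The start at chr2:164389095 had one in 2 young and 3 old livers, and that at chr2:164356507 in 2 young and 0 old livers. Havcr1 had no peak in any of the 12 libraries, in young or old.

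Krt7 had peaks in kidney libraries alone: its fold enrichment was 5.88, 7.29 and 5.97 in young and 5.70, 4.34 and 5.41 in old kidney, and no liver library had a peak. Krt8 was at 8.68, 7.70 and 4.33 in young and 5.34, 4.38 and 3.86 in old kidney, and at 6.38, 4.45 and 4.57 in young and 2.76, 4.43 and 2.41 in old liver. With 3 libraries against 3, the smallest p an exact permutation test can give is 0.1. Krt7 and Slpi in kidney reached it, with old lower in all libraries, as 6.94% of genes were, and the part of the lower peak number of the old kidneys in this was not tested. Krt8 in liver reached it too, where 4.55% of genes were old lower. The Slpi peaks in kidney lay at a distal annotated start (chr2:164389095), with none at the start of its RefSeq transcript, and no peak was found at the RefSeq promoter in young or old kidney.

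**Figure D5:**
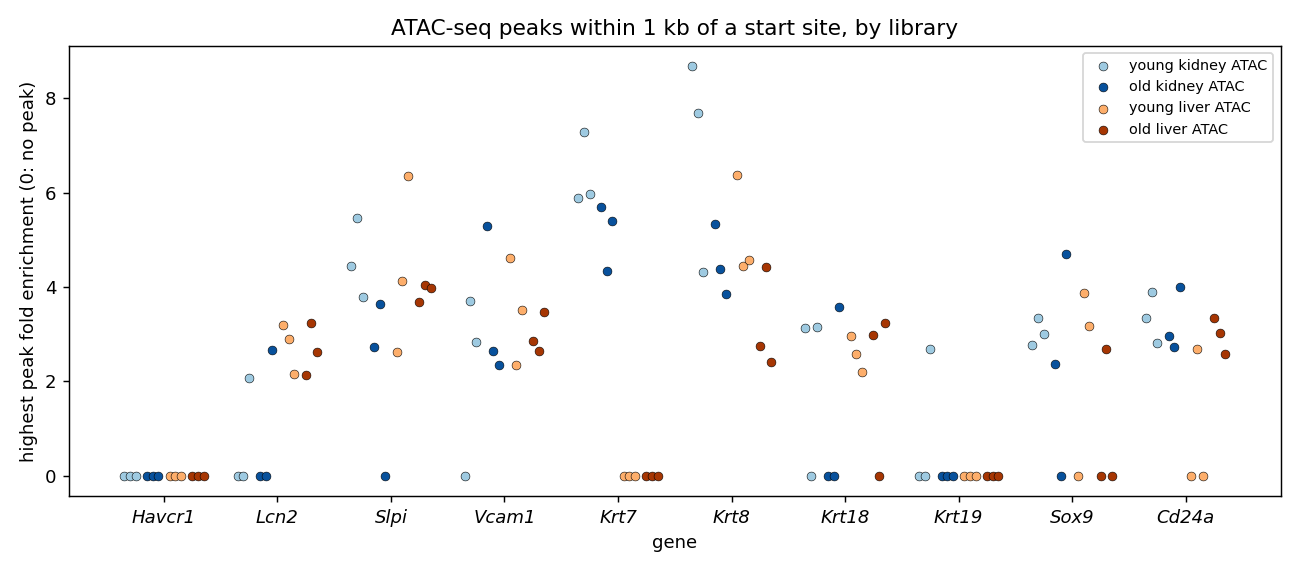
Highest MACS2 fold enrichment of a peak within 1 kb of a start site, by gene, with 1 point per ATAC-seq library and 0 where no peak was found. Krt7 has peaks in all 6 kidney libraries and in no liver library, Krt8 in all 12 libraries and Havcr1 in none.

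Promoters are shown from RefSeq (GRCm38.p6), 250 bases before to 50 after the annotated start, for 5 of the 6 genes with an entry. Krt7 is the promoter open in kidney alone, Krt8 the one open in every library and Krt18 that of its filament partner. Slpi and Lcn2 are those with the largest RNA changes with age, and no kidney library had a peak in the Slpi window shown. Capitals mark the motif matches found on either strand among AP-1 (TGANTCA), ETS (GAGGAAGT), the TATA box (TATAAA) and the NF-kB site.
Krt7, chr15:101412153-101412452, plus strand: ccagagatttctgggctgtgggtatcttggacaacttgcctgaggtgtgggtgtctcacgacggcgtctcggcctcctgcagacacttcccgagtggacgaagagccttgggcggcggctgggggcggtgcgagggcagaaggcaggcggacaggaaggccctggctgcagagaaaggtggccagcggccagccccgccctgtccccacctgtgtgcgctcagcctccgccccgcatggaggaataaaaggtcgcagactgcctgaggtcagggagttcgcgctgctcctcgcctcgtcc
Krt8, chr15:102004293-102004592, minus strand: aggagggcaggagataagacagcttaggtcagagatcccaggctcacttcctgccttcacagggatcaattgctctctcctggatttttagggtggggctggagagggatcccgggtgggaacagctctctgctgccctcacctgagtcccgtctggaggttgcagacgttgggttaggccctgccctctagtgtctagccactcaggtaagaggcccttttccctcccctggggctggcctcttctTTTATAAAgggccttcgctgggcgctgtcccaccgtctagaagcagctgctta
Krt18, chr15:102027966-102028265, plus strand: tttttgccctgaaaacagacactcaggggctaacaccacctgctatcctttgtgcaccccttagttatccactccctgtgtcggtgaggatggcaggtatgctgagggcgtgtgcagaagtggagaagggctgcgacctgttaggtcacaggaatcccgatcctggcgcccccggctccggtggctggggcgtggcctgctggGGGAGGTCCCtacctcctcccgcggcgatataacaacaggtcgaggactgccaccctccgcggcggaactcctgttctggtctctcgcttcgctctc
Slpi, chr2:164356458-164356757, minus strand: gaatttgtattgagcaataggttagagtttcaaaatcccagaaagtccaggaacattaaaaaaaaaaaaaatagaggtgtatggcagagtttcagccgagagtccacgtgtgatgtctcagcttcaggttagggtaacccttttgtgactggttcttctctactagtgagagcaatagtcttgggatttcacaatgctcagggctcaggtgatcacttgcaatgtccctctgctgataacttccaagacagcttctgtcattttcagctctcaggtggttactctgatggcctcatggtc
Lcn2, chr2:32387690-32387989, minus strand: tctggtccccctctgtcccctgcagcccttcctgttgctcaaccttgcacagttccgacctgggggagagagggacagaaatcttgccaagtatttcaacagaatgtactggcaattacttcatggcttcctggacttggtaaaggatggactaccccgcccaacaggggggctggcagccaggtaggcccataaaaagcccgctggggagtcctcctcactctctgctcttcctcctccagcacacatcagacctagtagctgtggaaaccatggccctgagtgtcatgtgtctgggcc
Krt8 held overlapping TATA boxes on both strands at the start itself, a motif present in 13.6% of 32544 promoters of this length. Krt18 held an NF-kB site 47 to 38 bases before its start (8.49% of promoters). The third Havcr1 promoter held an AP-1 match 10 to 16 bases after its start (7.79%). The ETS letters were in none of these windows (3.11%), and Krt7, Slpi and Lcn2 held no match to any of the 4 motifs. A match is a description of letters only.

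The genes whose group means ran most like those of each gene over the 10 groups, among 12603 searched, are given as a description over points that share depth and tissue. Havcr1 was followed most closely by Gsdmc3 (r = 0.991) and Muc20 (0.987), Lcn2 by S100a9 (0.985) and Sp140 (0.971), and Slpi by Ms4a7 (0.949) and Alox5ap (0.84). Vcam1 ran with Fam111a (0.993) and Apobr (0.988), Krt7 with Cldn7 (0.997) and Prr15 (0.996), and Krt8 with Golt1a and Acox2 (0.999 each). Krt18 ran with Pigr (0.997). The closest were, for Krt19, Cd320 and Bag1 (0.955 each), for Sox9 Ttpal (0.979) and Grk6 (0.978), and for Cd24a Gnai1 (0.993) and Taf9b (0.991).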

How the data were processed

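Gene expression and open chromatin were measured in 50 samples of 14 groups, taken from the labels. Per the study's methods the authors trimmed RNA-seq reads with Trimmomatic 0.39, aligned them with HISAT2 2.2.1 to mm10 and counted them with HTSeq 0.12.4 without regard to strand. The deposited counts are whole reads per gene, so opposite strands cannot be told apart (5.6% of Krt8 exon overlaps Gm36026, which is not counted), and reads shared with copies of Krt8 or Cd24a may be lost or misplaced. For ATAC-seq the authors called peaks per library with MACS2, and the deposited files give fold enrichment as a ratio and -log10 p and q.

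Only the libraries of a comparison entered its model in edgeR 4.0.16 under R 4.3.3, with TMM factors, filterByExpr (minimum count 10) and the two-sided quasi-likelihood test. On simulated counts for the kidney age comparison, with 200 of 14495 genes changed 4-fold, 196 were recovered with 2 false calls. Other settings tried were DESeq2 1.42.0, RLE factors, no filter or a mean of 1 CPM, calls on the adjusted p only, the replicate number as a block, and the omission of every library in turn. Leaving out old kidney replicates 2 and 4, or old liver replicates 1 and 3, was chosen after seeing the data. Deviations of same-numbered kidney and liver libraries correlated at 0.23 to 0.74 in young and -0.54 to 0.68 in old. In the 3C groups r was 0.13 to 0.32 and in the DMSO groups 0.07 to 0.24. Every DMSO and 3C kidney library matched the liver of its own number best, but young replicate 1 and old replicates 3 and 4 did not. Old and young kidneys, which cannot be pairs, reached 0.66, so these values do not settle a pairing. A fit that pairs tissues within each age or treatment was added for the differences between tissues after seeing the data. The 10 genes and the other gene lists were chosen with earlier results of these data known. All 10 are named, and of each other list up to 4 called genes with the smallest p in the kidney age comparison. Likeness used log2 CPM with a prior count of 2 over genes with at least 5 CPM in a group, without Gm and Rik names, and 1 result of it is not reported here. Promoters of Vcam1, Krt19, Sox9 and Cd24a were not used here.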

Additional observations from a re-analysis of the deposited data

Results flagged for a closer look

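In 9 of 76 sets of 4 libraries with at least 1 CPM, a gene had 1 library whose gap to the nearest other library exceeded Dixon's 95% critical share of the range; chance flags about 1 in 20 sets.

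In kidney, Havcr1 stood out in young replicate 3 at 2.94 CPM (others 1.57 to 1.74) and in old replicate 4 at 28.5 CPM (others 8.78 to 11.2). In the DMSO series Krt8 was at 168 CPM in kidney replicate 3, against 158 CPM in each of the others.

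In liver, Lcn2 was at 24.2 CPM in young replicate 3 (others 7.67 to 9.42) and at 2890 CPM in 3C replicate 2 (others 39.6 to 269). That 3C library also held the highest Krt8, at 436 CPM (others 239 to 266). Slpi was at 22.1 CPM in old replicate 1 (others 1.35 to 2.45). Among DMSO livers Krt7 was low in replicate 1 at 0.754 CPM (others 1.34 to 1.44), and Sox9 was low in replicate 3 at 3.08 CPM (others 5.22 to 5.53).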

How the results depend on the processing

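Of 1157 alternative values over 78 results, 1095 kept the direction and the side of the threshold, or for counts lay within 1.5 times the main count. The 5 calls in old kidney numbered 4 to 5 when single libraries were left out, 6 in DESeq2 and 5 with the replicate block. The block changed no count of called genes among the 10 in any comparison. The comparison of young kidney with young liver had 3 higher and 5 lower with the block. The differences between tissues had 0 when kidney and liver were paired within each age or treatment (102 genes of all tested for age, against 258 unpaired). Within the age and 3C comparisons same-numbered libraries correlated at -0.63 to 0.66. Over all genes, those called lower in old kidney, 59 in all, were 117 in DESeq2, 487 on the adjusted p alone, 621 without old replicates 2 and 4 and 34 to 337 without single libraries. Those called higher in old liver, 212 in all, were 523 in DESeq2, 91 with the replicate block, 140 without old replicates 1 and 3 and 48 to 365 without single libraries. Those called lower in old liver, 55 in all, were 119 in DESeq2 and 28 to 79 without single libraries. In fibroblasts 85 lower genes became 240 on the adjusted p alone and 40 to 92 without single libraries. Among the 10 genes, those called higher in old liver, 1 in all, were 2 on the adjusted p alone, 2 without old replicates 1 and 3, and 0 to 1 without single libraries. The count of genes called lower in fibroblasts was 0 to 1 and that of age effects differing between tissues 0 to 2 without single libraries. Genes with a peak in every liver library, 4 in all, were 0 at a -log10 q of at least 5 and 2 within 250 bp.

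Some log2 values changed sign. Without old liver replicates 1 and 3 Krt8 was -0.013, and with the replicate block Krt19 in fibroblasts was -0.013. Over the fits without single libraries the ranges were, with age in liver, -0.741 to 0.002 (Krt7); for 3C in kidney, -0.024 to 0.039 (Cd24a), -0.064 to 0.043 (Krt8) and -0.234 to 0.037 (Krt18); for 3C in liver, -0.159 to 0.176 (Krt8), -0.226 to 0.065 (Krt18), -0.112 to 0.726 (Slpi), -0.245 to 2.79 (Lcn2) and -0.682 to 0.067 (Krt19); for 3C in fibroblasts, -0.105 to 0.229 (Krt19); and for the difference of age effects, -0.586 to 0.094 (Cd24a). The cause was not tested. At 14.2 to 43.7 M counts per library, Havcr1 in liver and 5 genes in fibroblasts were too low to test.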
